A study of Rattus norvegicus with 48 samples.

Results

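The comparison described here set 3 livers of rats given the high dose of thioacetamide (TAA) for 14 days (high dose 14-d) against the 3 livers of their time-matched controls (control 14-d), which makes 6 of the 48 miRNA-seq libraries of the series. All rats were male Sprague-Dawley rats. TAA, a liver toxicant and rodent liver carcinogen, was given once a day, at 45 mg/kg in the high dose group, and the controls received vehicle alone. The whole study had 16 groups of 3 livers, from controls and from rats at 4.5 (low), 15 (middle) and 45 (high) mg/kg, killed a day after the last of 3, 7, 14 or 28 daily doses (written 3-d to 28-d). At each condition 5 rats were dosed and 3 of them were profiled, so each library is a different rat. The libraries were named by the running numbers in their labels, controls 13, 14 and 15 and high dose rats 7, 8 and 9. Of 764 mature miRNAs in the count table, 664 had a read in at least 1 of the 48 libraries, and the 301 with an RPM (reads scaled to the same total in every library) of 5 or more in 3 or more of the 48 libraries were tested.

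A mature miRNA, a small single-stranded RNA, guides a silencing complex to mRNAs, mainly through its seed, bases 2 to 8, and the mRNA is then repressed. Hepatocytes are known for a very high content of a few miRNAs such as miR-122 and miR-192, while miR-199a and miR-214 are known from mesenchymal cells, and miR-34a is a transcriptional target of p53. The Dlk1-Dio3 region is an imprinted stretch of the genome whose many miRNAs are made from the maternal chromosome, and they are abundant in the embryo and low in adult liver. In whole liver, a lower number of cells of a type and less RNA per cell cannot be told apart.

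The sequences of the miRNAs that the results turn on are given from RefSeq (GRCr8), 5′ to 3′, with the seed in capitals. The Dlk1-Dio3 miRNAs are shown because most of the largest increases came from this region and because they share no seed, so they are grouped by position and not by target site.

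miR-127-3p: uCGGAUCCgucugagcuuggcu
miR-434-3p: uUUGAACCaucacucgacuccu
miR-136-3p: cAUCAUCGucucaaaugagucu
miR-411-5p: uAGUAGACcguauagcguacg
miR-541-5p: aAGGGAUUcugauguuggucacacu

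On GRCr8 all 5 lie on the plus strand of chromosome 6, miR-127-3p at chr6:134328510-134328531, miR-434-3p at chr6:134330451-134330472 and miR-136-3p at chr6:134331383-134331404, these 3 within the span of the protein-coding gene Rtl1. Further along are miR-411-5p at chr6:134544604-134544624 and miR-541-5p at chr6:134578434-134578458, each within the span of an annotated lncRNA. The 3 miR-29 guide strands are shown because they share the seed AGCACCA, and miR-29a-3p was the lower miRNA with the smallest p.

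miR-29a-3p: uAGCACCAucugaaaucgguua
miR-29c-3p: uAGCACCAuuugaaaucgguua
miR-29b-3p: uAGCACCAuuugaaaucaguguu

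MiR-21-5p, miR-34a-5p and miR-455-3p are shown as single miRNAs followed in liver injury, and miR-199a-3p, miR-199a-5p and miR-214-3p as the 3 products of a shared region on chromosome 13, within the span of Dnm3.

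miR-34a-5p: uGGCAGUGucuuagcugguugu
miR-455-3p: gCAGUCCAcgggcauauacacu
miR-21-5p: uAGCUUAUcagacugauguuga
miR-199a-3p: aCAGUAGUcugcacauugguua
miR-199a-5p: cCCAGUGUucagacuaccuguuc
miR-214-3p: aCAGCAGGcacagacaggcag

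On chromosome 5, miR-34a-5p lies at chr5:165815971-165815992 within an lncRNA, and miR-455-3p at chr5:81704881-81704902 within the span of the collagen gene Col27a1.

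The 6 libraries held 4829217 to 12830063 counts. Levels below are RPM after upper quartile scaling of the 6 libraries (normalised RPM), unless plain RPM is named. Pearson's r of log2(count + 1) over the 301 miRNAs was 0.982 to 0.994 within the groups and 0.977 to 0.990 between them, so the difference between the groups was small beside the likeness of all 6 livers. The upper quartile factors were 0.889 to 0.972 in the controls and 1.06 to 1.12 in the high dose libraries, so the scaling itself differed between the groups. The 3 hepatocyte markers (miR-122-5p, miR-192-5p and miR-194-5p) summed to 237428 to 274536 normalised RPM in the controls and 202393 to 229406 in the high dose livers, but in plain RPM the groups overlapped, at 230896 to 244494 and 225721 to 243202. Most of this sum was miR-192-5p, with means of 211840 normalised RPM in the controls and 179042 in the high dose livers. Of the marker lists for cell types, no red blood cell, leukocyte, endothelial, epithelial or hepatocyte marker passed the threshold used here, and the summed red blood cell markers were 4046 to 5337 normalised RPM in the controls and 2480 to 6339 in the high dose livers. Of the 4 smooth muscle or stellate cell markers, 2 were lower (miR-199a-3p and miR-214-3p), while the sum of all 4 was 43391 to 44514 in the controls and 40125 to 44996 in the high dose livers, and in plain RPM 39559 to 42197 and 44750 to 47702, without overlap. Nearly all of that sum was miR-143-3p, with means of 42755 normalised RPM in the controls and 41631 in the high dose livers, so it says little on the other markers.

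High dose 14-d gave 28 differentially expressed miRNAs (DEMs), defined as a p-value below 0.05 by edgeR's quasi-likelihood test and a fold change above 1.5. At any fold change 61 of the 301 had a p below 0.05, 25 higher and 36 lower. The 28 DEMs were 9.3% of the 301 tested, with 17 higher (5.65%) and 11 lower (3.65%) than control 14-d. After Benjamini-Hochberg adjustment over all 301, 7 miRNAs (2.33%) had an adjusted p below 0.05, of which 5 were DEMs: miR-434-3p, miR-411-5p, miR-127-3p and miR-15b-3p rose and miR-29a-3p fell. In 25 of the 28 DEMs the high dose and control values did not overlap, against 74 of all 301 miRNAs (24.6%). Since the DEMs were picked on these same values, this largely restates how they were picked. The split into higher and lower calls depended on the scaling, being 17 and 11 with the upper quartile, 19 and 6 with TMM and 32 and 3 with the library total alone, where the median log2 fold change of all 301 moved from -0.04 to 0.17. With the library total, miR-455-3p, miR-210-5p and miR-466b-3p were the lower DEMs kept of the 11.

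**Figure D1:**
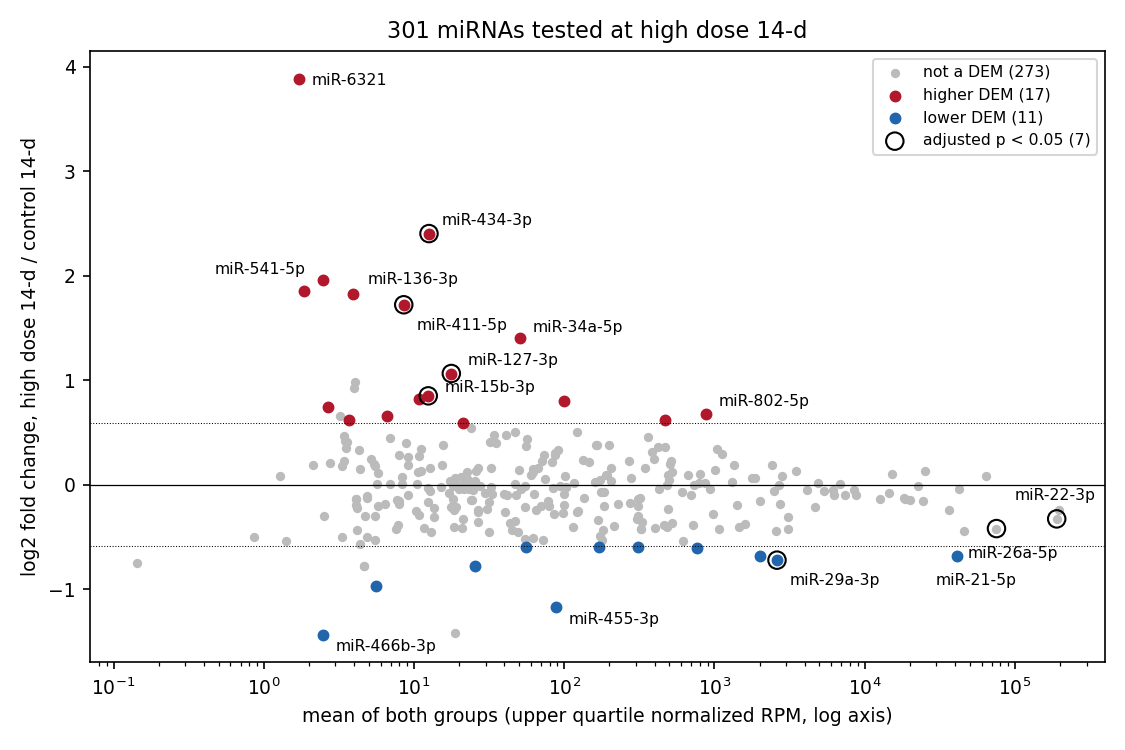
Log2 fold change of high dose 14-d over control 14-d (vertical) against the mean of both groups in normalised RPM (horizontal, log axis) for the 301 miRNAs tested, with dotted lines at a fold change of 1.5. The 17 higher DEMs (red) reach a log2 fold change of 3.88, the 11 lower DEMs (blue) reach -1.44, and black circles mark the 7 miRNAs with an adjusted p below 0.05.

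The calls rested on the time-matched controls. When the high dose 14-d livers were set against all 12 controls of the study, 1 DEM was left, miR-34a-5p, with none after adjustment by edgeR's test and 5 miRNAs at an unadjusted p below 0.05. The first control of 3-d had 293331 counts, the lowest total of all 48 libraries, and without it, an alternative chosen after seeing the data, 3 DEMs were left, miR-34a-5p, miR-29a-3p and miR-210-5p, with 20 miRNAs at an unadjusted p below 0.05 and none after adjustment. In none of the 28 DEMs did all 3 high dose livers lie beyond all 12 controls in plain RPM, a state that 4 of all 301 miRNAs reached.

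MiRNAs of the Dlk1-Dio3 region were higher at high dose 14-d. Of its 81 miRNAs with a read, 8 passed the filter and were tested; all 8 were fitted higher, and 6 were DEMs, all in the higher direction. Their median log2 fold change was 1.77, against -0.04 over all 301. Against the same controls the median of these members was 0.94 at low dose 14-d and 0.09 at middle dose 14-d. At high dose it was -0.05 at 7-d and 1.57 at 28-d, against the controls of those times. Low dose 14-d had 1.80 for miR-411-5p, 1.38 for miR-127-3p and 2.09 for miR-541-5p. For miR-434-3p, miR-136-3p and miR-136-5p it had 1.09, 0.69 and -0.57. MiR-434-3p had 2.73, 4.09 and 5.17 normalised RPM in controls 13, 14 and 15, and 26.96, 13.5 and 23.04 in high dose rats 7, 8 and 9. The lowest high dose liver was thus above the highest control, and the log2 fold change was 2.40 (SE 0.33 from the fit, adjusted p = 0.013 by edgeR's quasi-likelihood test). MiR-411-5p had 2.95, 3.78 and 5.17 in the controls and 14.6, 10.9 and 13.8 in the high dose livers. Its groups did not overlap either, with a log2 fold change of 1.72 (SE 0.26, adjusted p = 0.013 by edgeR's test). MiR-127-3p, a product of the strand opposite Rtl1, had 12.3, 12.1 and 10.1 in the controls and 29.6, 23.6 and 18.7 in the high dose livers. It rose by 1.06 on the log2 scale (SE 0.21, adjusted p = 0.049 by edgeR's test).

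The remaining 3 DEMs of the region were present at a few RPM. MiR-541-5p had 0.328, 1.26 and 1.40 normalised RPM in the controls and 6.58, 3.13 and 2.18 in the high dose livers, without overlap. MiR-136-3p had 0.984, 1.15 and 3.07 in the controls and 7.31, 2.73 and 8.29 in the high dose livers, so that rat 8 lay below control 15. MiR-136-5p, from the other arm of the same hairpin, had 0.109, 0.945 and 1.32 in the controls and 2.82, 2.15 and 3.75 in the high dose livers. Their log2 fold changes were 1.96 (SE 0.58), 1.82 (SE 0.52) and 1.85 (SE 0.58), and none passed the adjustment. Without rat 9 miR-136-5p was not a DEM. MiR-1247-5p and miR-1247-3p, listed with the region but read from the minus strand of chromosome 6, had log2 fold changes of 0.33 (SE 0.31) and 0.92 (SE 0.51) and were not called, though miR-1247-3p passed the threshold without control 13, at 1.36, without rat 8, at 1.24, and with no filter on low values, at 0.91. The 5 miRNAs of the plus strand from miR-127-3p to miR-541-5p span 249949 bases on GRCr8.

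Members of the region under the filter were counted after seeing the data. Of its 73 miRNAs under the filter, 43 had a read in the 6 libraries, and in 38 of these (88.4%) the mean was higher in the high dose livers, against 107 of 211 other miRNAs under the filter (50.7%). Together these members had 2.73, 4.30 and 4.21 normalised RPM in controls 13, 14 and 15 and 18.4, 6.45 and 12.3 in high dose rats 7, 8 and 9. In reads this was 25, 41 and 48 in the controls and 176, 33 and 141 in the high dose livers. Many members thus rested on a few reads, and members of the same region are not independent of each other. Rat 8, which had the lowest total of the 6 libraries, was the lowest of the high dose livers for these members and for miR-434-3p, miR-411-5p, miR-136-3p and miR-136-5p.

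The controls themselves changed with time in this region. In plain RPM, miR-434-3p was 14.1 to 44.3 in the 3-d controls and 15.6 to 19.5 in the 7-d controls, but 2.53 to 4.60 in the 14-d and 2.84 to 5.09 in the 28-d controls. The high dose livers had 6.85 to 18.8 at 7-d, 14.3 to 30.1 at 14-d and 11.7 to 15.2 at 28-d. At 14-d and 28-d the high dose livers thus lay above their own controls and within or near the levels of the early controls. With all 12 controls pooled the log2 fold change of miR-434-3p was 0.73, that of miR-411-5p was 0.34 and that of miR-127-3p was 0.01.

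**Figure D2:**
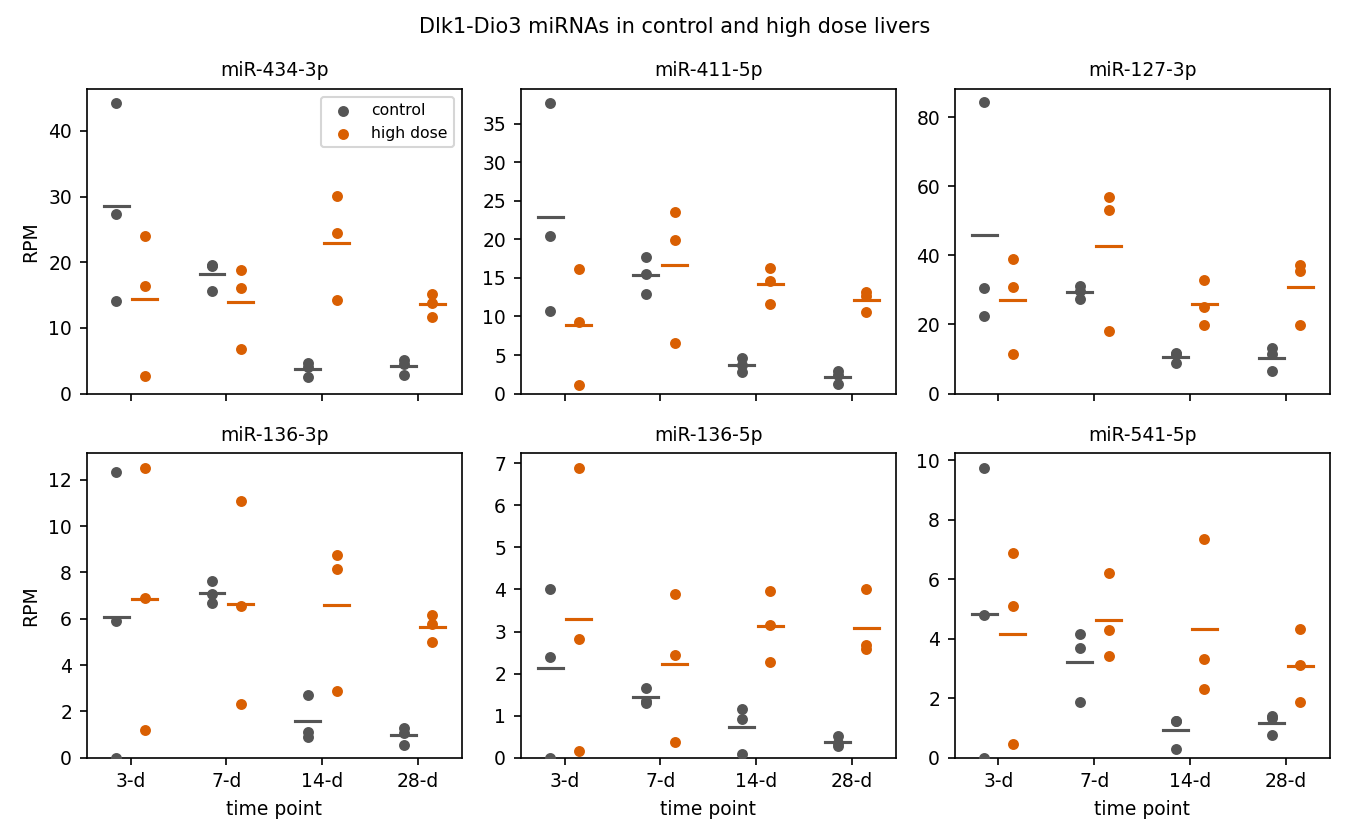
Plain RPM of 6 Dlk1-Dio3 miRNAs in control (grey) and high dose (orange) livers at the 4 times of killing, each point a liver and each bar the mean of 3. MiR-434-3p was 2.53 to 4.60 RPM in the 14-d controls and 14.3 to 30.1 RPM in the high dose 14-d livers, while the 3-d and 7-d controls lay between 14.1 and 44.3 RPM.

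Among the single miRNAs that rose, miR-34a-5p was the one whose call held with every scaling, filter, test and set of controls tried. It had 22.97, 31.1 and 29.2 normalised RPM in controls 13, 14 and 15 and 39.5, 105.9 and 75.6 in high dose rats 7, 8 and 9. All 3 high dose livers were above the controls, rat 7 by the least, and the log2 fold change was 1.40 (SE 0.33, adjusted p = 0.078 by edgeR's test). The other miRNAs with its seed, GGCAGUG, were not called: miR-449a-5p at 0.66 (SE 0.36) and miR-34c-5p at -0.10 (SE 0.21). MiR-449a-5p passed the threshold without control 13, at 0.92, and with the library total, at 0.87. MiR-34a-3p was not among the miRNAs tested.

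The level of miR-34a-5p at high dose 14-d was low beside the other treated groups. In plain RPM it was 44.1 to 112.2 at high dose 14-d, against 453.0 to 883.0 at low dose 14-d and 367.6 to 615.9 at middle dose 14-d. At the same dose it was 519.4 to 816.6 at 7-d and 68.1 to 169.2 at 28-d, and the controls of 14-d had 21.2 to 30.2. None of the high dose 14-d livers overlapped the low or middle dose 14-d livers or the high dose 7-d livers, while the low and middle dose livers overlapped each other. The groups were taken from the labels, which were not checked by another measure for these 3 libraries. In the fit of all 48 libraries the difference from low dose 14-d was -3.29 on the log2 scale (SE 0.52, adjusted p = 6.2e-05 by edgeR's test) and that from middle dose 14-d was -2.67 (SE 0.50, adjusted p = 0.0012 by edgeR's test). Its increase over controls was smaller than at high dose 7-d by a difference of -2.33 (SE 0.68, adjusted p = 0.027 by edgeR's test), and the difference from high dose 28-d was -1.38 (SE 0.68, adjusted p = 0.59).

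Among the other higher miRNAs, miR-15b-3p, the passenger strand of a cell-cycle-linked hairpin, had 9.19, 8.50 and 8.95 normalised RPM in the controls and 14.4, 16.2 and 17.4 in the high dose livers. These groups were tight and well apart, with a log2 fold change of 0.85 (SE 0.17, adjusted p = 0.049 by edgeR's test). Against the same controls miR-15b-3p had 0.93 at low dose 14-d and 0.90 at middle dose 14-d, so this rise was not particular to the high dose. Both arms of the miR-802 hairpin rose together. MiR-802-5p had 554.2, 756.2 and 715.1 in the controls and 1327, 961.0 and 935.6 in the high dose livers, a log2 fold change of 0.67 (SE 0.18), and miR-802-3p one of 0.61 (SE 0.20), both without overlap. Neither passed the adjustment, and both lost the call without high dose rat 7, the highest library, and without control 13, the lowest. At high dose 7-d miR-802-5p was lower than its controls (-0.69), and the difference of effects was 1.36 (SE 0.40, adjusted p = 0.027 by edgeR's test).

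MiR-193b-3p, known from adipose and liver cells, had 84.8, 57.3 and 75.1 normalised RPM in the controls and 148.4, 128.9 and 99.8 in the high dose livers, without overlap and with a log2 fold change of 0.80 (SE 0.21). Low and middle dose 14-d had 0.84 and 0.69 against the same controls. With all 12 controls pooled its sign turned, to -0.65, and with 11, without the first control of 3-d, it was 0.29. The other miRNA with its seed, miR-193a-3p, had -0.42 (SE 0.16) and was not a DEM. MiR-6321 had the largest fitted change, 3.88 on the log2 scale (SE 1.18), from 0, 0.525 and 0.0877 normalised RPM in the controls and 0.209, 4.88 and 4.63 in the high dose livers. Its groups overlapped, since rat 7 was at the level of the controls. MiR-6324, miR-92b-3p, miR-324-3p, miR-3473 and miR-9a-5p were DEMs with log2 fold changes of 0.59 to 0.82 and adjusted p of 0.112 to 0.237 by edgeR's test. They were kept in 3, 3, 1, 2 and 2 of the 6 fits that left out a library, and in miR-324-3p and miR-9a-5p the 14-d controls lay below the 8 controls of the other time points (without the first control of 3-d). MiR-9a-5p was also the brain marker measured here, and miR-124-3p, the defining one, had 0 reads in all 6 libraries.

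The lower DEMs were on the whole more abundant, with a median level of 204.8 normalised RPM in the controls, against 13.8 in the high dose livers for the higher DEMs. MiR-29a-3p, which represses collagen and other matrix genes, had 3230, 3138 and 3375 in controls 13, 14 and 15 and 2149, 1922 and 1830 in high dose rats 7, 8 and 9. The groups were far apart beside their spread, and it fell by 0.72 on the log2 scale (SE 0.11, adjusted p = 0.013 by edgeR's test). Low and middle dose 14-d had -0.90 and -0.11 for miR-29a-3p against the same controls. High dose 7-d and 28-d had -0.33 and -0.74 against their own controls. MiR-29c-3p had 367.6, 359.1 and 392.9 in the controls and 213.7, 272.5 and 255.8 in the high dose livers, and it fell by 0.59 (SE 0.14, adjusted p = 0.078 by edgeR's test), a call lost without control 15, without rat 7, with TMM, with DESeq2's size factors or test, and with both stricter filters on low values. MiR-29b-3p, with the same seed, had -0.36 (SE 0.20) and was not called. With the library total alone as the scale these 2 DEMs had log2 fold changes of -0.50 and -0.38, under the fold limit.

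The 3 tested products of the miR-199a and miR-214 region, of 4 listed, were all lower DEMs, with a median of -0.60. MiR-199a-3p had 692.8, 1193 and 872.9 in the controls and 619.4, 599.5 and 597.6 in the high dose livers, which lay just under control 13. MiR-199a-5p, from the other arm, had 158.7, 281.2 and 174.4 in the controls and 154.1, 122.3 and 128.5 in the high dose livers. In both arms control 14 was the highest library, and without it neither was a DEM, nor was miR-199a-5p without rat 8 or without rat 9. MiR-214-3p had 31.6, 39.7 and 25.5 in the controls and 27.9, 12.1 and 15.9 in the high dose livers, so rat 7 overlapped the controls, and it was kept in 2 of 6 fits that left out a library. The log2 fold changes were -0.60 (SE 0.19), -0.60 (SE 0.23) and -0.78 (SE 0.31), and none passed the adjustment. With TMM scaling none of the 3 was a DEM. MiR-199a-3p can come from more than 1 hairpin, which its reads do not separate.

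At high dose 7-d these miRNAs were fitted higher than in their controls, miR-214-3p at 0.94 and miR-199a-5p at 0.69. The differences of effects were -1.72 (SE 0.42, adjusted p = 0.0070 by edgeR's test) and -1.29 (SE 0.36, adjusted p = 0.018 by edgeR's test). For miR-199a-3p the difference was -1.02 (SE 0.33, adjusted p = 0.052 by edgeR's test). At high dose 28-d the members parted. MiR-214-3p was fitted higher than its controls, at 0.77, and miR-199a-3p and miR-199a-5p lower, at -0.17 and -0.25. The 14-d effect of miR-214-3p minus its 28-d effect was -1.55 (SE 0.42, adjusted p = 0.16 by edgeR's test).

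MiR-21-5p, a miRNA raised in liver injury and fibrosis, was lower at high dose 14-d. It had 51143, 48498 and 52236 normalised RPM in the controls and 21025, 36276 and 37329 in the high dose livers. The groups did not overlap and rat 7 was the lowest, and the log2 fold change was -0.68 (SE 0.19, adjusted p = 0.112 by edgeR's test). Without rat 7, or with the library total as the scale, it was no longer a DEM. At high dose 7-d it was higher than its controls by 0.59, and the difference of effects was -1.27 (SE 0.34, adjusted p = 0.014 by edgeR's test).

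MiR-455-3p had 174.8, 77.5 and 114.8 in the controls and 56.8, 51.2 and 54.3 in the high dose livers, the high dose livers being close together and the controls spread over more than their distance from them. It fell by 1.18 on the log2 scale (SE 0.28, adjusted p = 0.078 by edgeR's test), while miR-455-5p, from the other arm, had 0.15. At low and middle dose 14-d miR-455-3p had -1.05 and -1.60 against the same controls. High dose 7-d and 28-d had -0.51 and 0.20 for miR-455-3p against their own controls. MiR-122-3p, the passenger strand of the main hepatocyte miRNA, fell by 0.68 (SE 0.15), from 2136 to 2969 in the controls to 1390 to 1695 in the high dose livers, and was not a DEM without control 15 or with the library total as the scale. Its values at low and middle dose 14-d were -0.73 and -0.96 against the same controls. The guide strand miR-122-5p, at 35670 to 45818 in the controls and 30368 to 36097 in the high dose livers, had -0.25 (SE 0.12) with overlap and was not called. Let-7b-3p, miR-210-5p and miR-466b-3p fell by 0.60, 0.97 and 1.44 on the log2 scale, and were kept in 4, 6 and 4 of the 6 fits that left out a library. The call of let-7b-3p was also lost in 9 of 13 other alternatives, among them TMM, where it was -0.52, DESeq2's size factors and DESeq2's test. Against the same controls, low and middle dose 14-d had -0.95 and -1.34 for miR-210-5p. They had 0.05 and -0.56 for let-7b-3p, and -0.55 and -0.63 for miR-466b-3p. MiR-466b-3p belongs to a repeat-derived family of near-identical copies, so its reads may be shared among them, and at 1.14 to 6.13 normalised RPM it was the least abundant of the lower DEMs.

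**Figure D3:**
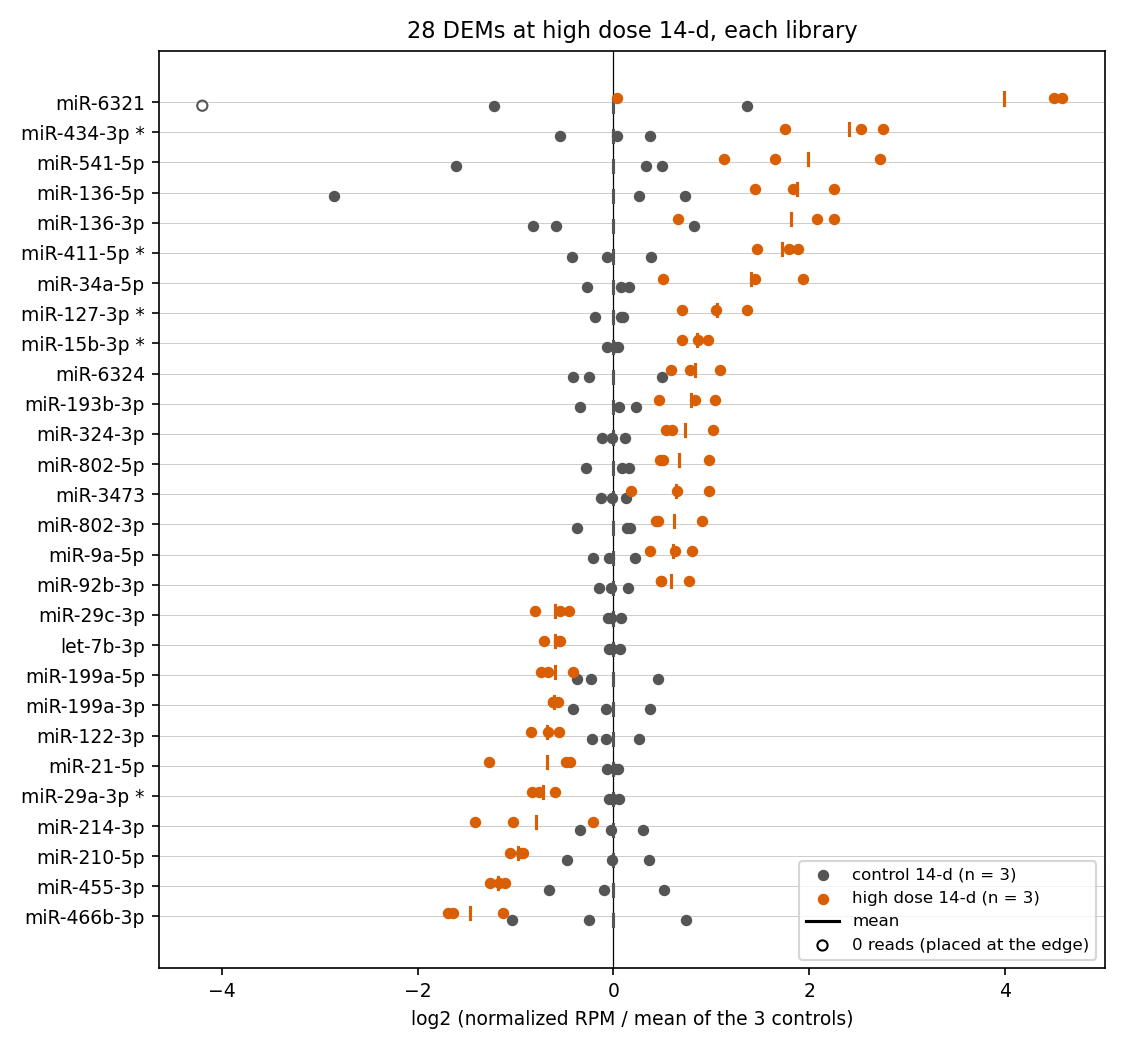
The 28 DEMs in each of the 6 libraries, as log2 of normalised RPM over the mean of the 3 controls, with controls in grey, high dose livers in orange and bars for the means. An open circle at the edge marks a library with 0 reads, and stars mark the 5 DEMs with an adjusted p below 0.05. In miR-6321, miR-136-3p and miR-214-3p the groups overlap, while in the other 25 they do not.

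The 5 most abundant miRNAs changed by less than 1.5-fold. MiR-26a-5p, a growth-suppressing miRNA, had 82798 to 90210 normalised RPM in the controls and 63792 to 65029 in the high dose livers and fell by 0.42 on the log2 scale (SE 0.07, adjusted p = 0.017 by edgeR's test). MiR-22-3p had 203391 to 223857 in the controls and 161560 to 174780 in the high dose livers and fell by 0.33 (SE 0.07, adjusted p = 0.049 by edgeR's test). MiR-192-5p, the most abundant miRNA, was 193562 to 221571 in the controls and 158618 to 189525 in the high dose livers, a log2 fold change of -0.24 (SE 0.09, adjusted p = 0.185 by edgeR's test). MiR-148a-3p, at 52974 to 74640 in the controls and 64557 to 68856 in the high dose livers, had 0.09 (SE 0.12) with overlap. MiR-10a-5p, from the Hox clusters, was 46959 to 59963 in the controls and 33762 to 43355 in the high dose livers, a log2 fold change of -0.45 (SE 0.12, adjusted p = 0.112 by edgeR's test). With the library total as the scale, the median of all log2 fold changes moved up by 0.21. That shift is close to the fall of miR-192-5p and is a large part of that of miR-22-3p. The size of these falls thus depended on the scaling.

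Among the 38 families and clusters listed, 195 of the 301 tested miRNAs had a place, and 20 of the 28 DEMs were among them. The most abundant members of these lists were 37 miRNAs, of which 5 were DEMs. The other 32 had log2 fold changes of -0.50 (miR-132-3p) to 0.33 (miR-1247-5p), with 7 at p below 0.05, of which miR-146a-5p, an inflammation-linked miRNA at 970.1 to 1101 normalised RPM in the controls and 1178 to 1318 in the high dose livers, was fitted higher, at 0.29 (SE 0.12). In the miR-30 family all 11 tested members were fitted lower, with a median of -0.23 and no DEM. The 9 tested members of the miR-99, miR-100 and miR-125 families were likewise all fitted lower, with a median of -0.40, 5 of them at p below 0.05 but none above 1.5-fold, beside 36 of all 301 lower at p below 0.05. The 6 members of the miR-148 and miR-152 family were all fitted higher, with a median of 0.36 and 3 at p below 0.05, beside 25 of all 301 higher. The 10 members of the miR-17 to miR-92a cluster and its copies were all fitted higher, at 0.04 to 0.28, with none at p below 0.05. These counts stand beside 131 of 301 miRNAs fitted higher and a median of -0.04 over all. With the library total as the scale 213 of the 301 were fitted higher, so that the sign of small changes in a family depends on the scaling.

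**Figure D4:**
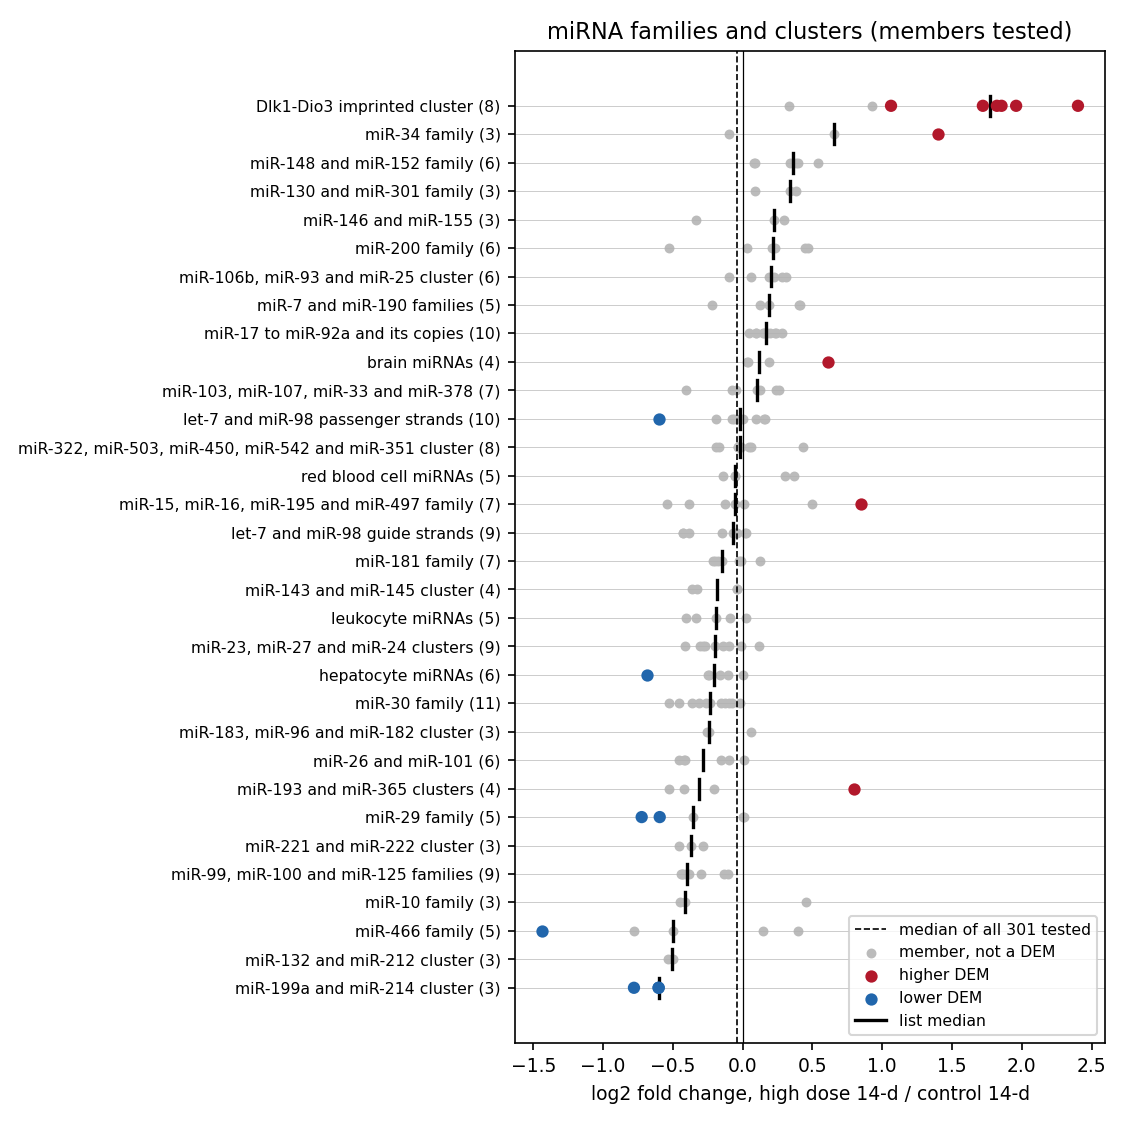
Log2 fold changes at high dose 14-d of the tested members of the families and clusters with at least 3 tested members, with list medians as bars, DEMs in red (higher) or blue (lower) and the median of all 301 as a dashed line. The Dlk1-Dio3 list has a median of 1.77 and 6 DEMs, and the list of miR-199a and miR-214 a median of -0.60 and 3 DEMs.

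Of the 93 hairpins with both arms tested, the 2 arms were fitted in the same direction in 64 (68.8%). Of the 13 such hairpins with a DEM, 9 had arms in the same direction, and in 3, those of miR-136, miR-199a and miR-802, both arms were DEMs. In the miR-29a and miR-29c hairpins the arm that was not a DEM was nearly unchanged, at 0.0039 (SE 0.27) and 0.0065 (SE 0.26). In those of miR-455 and miR-466b it was fitted higher but not called, at 0.15 (SE 0.21) and 0.39 (SE 0.21).

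Whether the response at high dose 14-d differed from that at the neighbouring times and doses was tested in a fit of all 48 libraries. From the effect of high dose 7-d, 22 of 301 miRNAs (7.31%) differed at an adjusted p below 0.05, 4 higher and 18 lower at 14-d, and 8 of the 28 DEMs were among them. The DEMs were picked on the same 14-d libraries that enter this contrast, so their share among the 22 is no separate support. With TMM the split was 5 and 15 of 20, and with the library total 4 and 11 of 15. Besides those named above these were miR-434-3p at 2.85 (SE 0.69), miR-802-3p at 1.16 (SE 0.34) and miR-466b-3p at -2.83 (SE 0.88). From the effect of high dose 28-d no miRNA differed at an adjusted p below 0.05 (0% of 301) by edgeR's quasi-likelihood test. At an unadjusted p below 0.05 there were 23, and the 2 effects were not shown to be equal. Among the DEMs the 14-d effect minus the 28-d effect was -1.55 for miR-214-3p (SE 0.42) and 1.13 for miR-802-5p (SE 0.40). Both had opposite fitted signs at the 2 times. Both comparisons have controls of their own. The DEMs of 14-d went the same way at high dose 28-d in 21 of 28 cases, against 58.5% of all 301, and at 7-d in 19 of 28, against 52.8%. Across all 301 miRNAs, which are not independent, Pearson's r of the log2 fold changes was 0.44 with 28-d and 0.05 with 7-d.

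At 14-d the livers of high dose differed from those of low dose in 58 of 301 miRNAs (19.3%) and from those of middle dose in 16 (5.32%). Of the 58, 9 were higher and 49 lower at high dose, but with TMM scaling the 49 called were 18 higher and 31 lower and with the library total the 42 called were 28 higher and 14 lower, so the direction of this difference depended on the scaling. Of the 16, 3 were higher and 13 lower, with TMM 5 and 13 of 18, and with the library total 3 and 12 of 15. Since low and middle dose share the 14-d controls with high dose, the groups were compared directly. Of the DEMs, 4 differed from low dose (miR-34a-5p, miR-136-5p, miR-21-5p and miR-9a-5p) and 4 from middle dose (miR-34a-5p, miR-434-3p, miR-136-5p and miR-199a-5p).

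**Figure D5:**
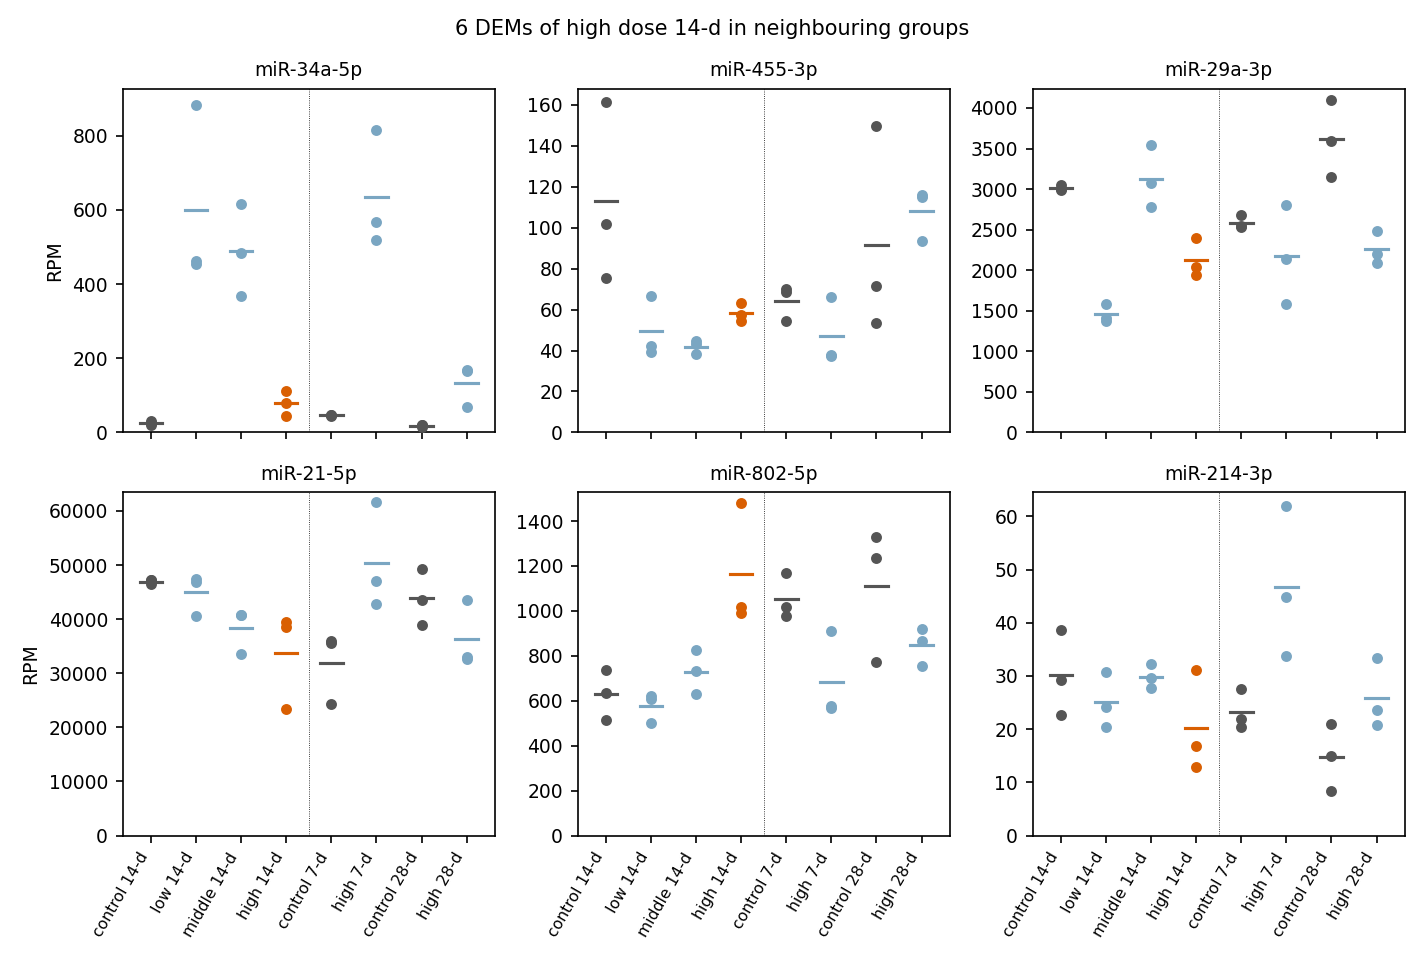
Plain RPM of 6 DEMs, chosen after their values were seen, in the 14-d groups (left of the dotted line) and in control and high dose livers of 7-d and 28-d, each point a liver and each bar the mean of 3, with high dose 14-d in orange and the controls in dark grey. MiR-34a-5p at high dose 14-d (44.1 to 112.2 RPM) lies under low dose 14-d, middle dose 14-d and high dose 7-d.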

How the data were processed

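The deposited table holds raw read counts of miRNAs in 48 rat liver libraries (TruSeq small RNA, HiSeq2000). Per the methods of the study, adaptors were removed, lengths of 18 to 25 bases retained and quality checked (FastQC); the authors then mapped reads to rn5 and to miRBase release 21 and counted them with miRDeep2; the deposited counts are not normalised. Such counts hold PCR copies. The SEs and p-values come from edgeR's fit and include the spread between the rats of a group. For a mature miRNA on several precursor rows the row with the most reads was kept. Of 847 rows, 764 mature miRNAs remained, 664 had a read, and those with at least 5 RPM in 3 or more of 48 libraries were tested. The 6 libraries held 4829217 to 12830063 counts, and 3 counts are 0.234 to 0.621 RPM.

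High dose 14-d was compared with control 14-d by edgeR 4.0.16 (R 4.3.3), quasi-likelihood F-test, upper quartile scaling; a DEM has p below 0.05 and fold change above 1.5, with Benjamini-Hochberg adjustment over all 301. Differences between conditions are contrasts of a fit of all 48 libraries. The scripts were tested on simulated data. There, upper quartile scaling shifted unchanged miRNAs, and raised false calls of differences, when many miRNAs changed strongly, so the splits of differences are also given with other scalings.

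The miRNAs named were, among DEMs without overlap, the 10 higher and 10 lower with the smallest p; all with an adjusted p below 0.05; miR-34a-5p, miR-34a-3p, miR-455-3p and miR-122-5p; each list's DEMs and most abundant member; and the 5 most abundant. Of these, most abundant list members are given singly only where a result turns on them. Others were named after seeing values. The members and lists were chosen with earlier results of these data known. Alternatives were TMM, DESeq2's size factors, library totals, 3 other filters, edgeR's exact test, DESeq2 1.42.0, pooled controls, a fit of 48 libraries, leaving out each library, and, chosen after seeing the data, the sum or mean of precursor rows and 11 pooled controls. Sequences and positions are from RefSeq (GRCr8), matched for 270 of 301 tested miRNAs and 25 of 28 DEMs.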

Additional observations from a re-analysis of the deposited data

Results flagged for a closer look

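In 8 DEMs the effect of the high dose at 14-d differed from that at 7-d, by the contrast of the 2 effects in edgeR's fit of all 48 libraries with an adjusted p below 0.05. The DEMs were picked by their 14-d effect, which is itself part of this contrast. On the log2 scale, the 14-d effect minus the 7-d effect was 2.85 for miR-434-3p, 1.36 for miR-802-5p and 1.16 for miR-802-3p. It was -2.33 for miR-34a-5p, -1.27 for miR-21-5p, -2.83 for miR-466b-3p, -1.29 for miR-199a-5p and -1.72 for miR-214-3p. In miR-34a-5p both effects were increases, and in the other 7 the fitted sign was opposite at the 2 times. The 7-d and 14-d controls differed too: in plain RPM miR-434-3p was 15.6 to 19.5 in the former and 2.53 to 4.60 in the latter, and miR-21-5p was 24355 to 35972 and 46420 to 47286. The part of the controls in these differences was not tested.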

How the results depend on the processing

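With the controls of all times pooled (12), 1 higher and 0 lower DEMs were left and 0 after adjustment; with 11 controls 1, 2 and 0. Signs turned for miR-193b-3p (-0.65), miR-92b-3p (-0.38) and miR-324-3p (-0.47) with 12 controls; with 11, without the first control of 3-d, these were 0.29, 0.27 and 0.31, so that library set the sign. MiR-9a-5p turned (-0.025) with 11; the cause was not tested. Lower DEMs numbered 6 with TMM; with library totals there were 32 higher and 3 lower. Without a filter there were 27 higher, 18 lower and 17 adjusted DEMs; with 5 RPM in every one of the 6 libraries 9, 5 and 2, and with 5 RPM in 3 of the 6, another reading of the filter, 12, 5 and 6, in all 17 DEMs against 28. Adjusted DEMs numbered 18 by the exact test, 13 by DESeq2 and 1 in the fit of 48 libraries, which gave 10 higher DEMs. Leaving out 1 library gave 14 to 17 higher, 10 to 13 lower and 0 to 8 adjusted DEMs, 0 without high dose rat 9, 2 without rat 8 or control 15, 3 without control 13 and 8 without rat 7; 12 of 28 DEMs were kept in all 6 fits. Fitted on the contrast's own libraries, the differences from high dose 7-d, low dose 14-d and middle dose 14-d numbered 34, 88 and 46, and the difference from low dose 27 without a filter. Leaving out 1 library gave 12 to 22 (12 without control 7-d replicate 6), 33 to 46 (35 without high dose rat 8, 33 without low dose replicate 40, 38 without low dose replicate 42) and 10 to 16 (10 without high dose rat 9), and 0 to 4 for high dose 28-d (4 without control 28-d replicate 16, 1 without high dose rat 7). Of 1248 other values of 67 named miRNAs, 1110 kept their side of the threshold, 129 DEM calls were lost, 5 calls were gained and 4 turned sign. The 129 lost calls all belonged to the 28 DEMs, while the 1248 values include those of miRNAs that were not DEMs. The share of calls lost among the DEMs was thus larger than 129 of 1248. No paired analysis was possible because the running numbers of the libraries are not shared between groups. Depth limits the DEMs at a few RPM, such as miR-541-5p and miR-6321.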
